A study of Mus musculus with 2 samples.

Results

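The 10 heat-shock chaperones described here are Hspa1a, Hspa1b, Hspa8, Hsp90aa1, Hsp90ab1, Hsph1, Dnaja1, Dnajb1, Hspe1 and Hspd1. They were chosen by name from the 54838 genes of the deposited tables, and each name matched 1 gene. Of these, 5 are usually called stress-inducible (Hspa1a, Hspa1b, Dnajb1, Hsph1 and Hsp90aa1) and the other 5 constitutive (Hspa8, Hsp90ab1, Dnaja1, Hspd1 and Hspe1).

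These proteins bind unfolded or newly made proteins and help them fold. Heat and other stresses that unfold proteins free heat shock factor 1 from repression by chaperones, and the factor then binds heat shock elements, inverted repeats of the unit GAA, upstream of its target genes. Hsp70 proteins (Hspa1a and Hspa1b, the inducible pair, and Hspa8, the constitutive form) use ATP to hold and release substrates. Their J-domain partners (Dnajb1 and Dnaja1) deliver the substrate, and the Hsp110 protein Hsph1 exchanges the nucleotide. Hsp90aa1 and Hsp90ab1 are the inducible and the constitutive cytosolic Hsp90, which act on kinases and receptors late in folding. Hspd1 and Hspe1 form the folding chamber of mitochondria and its lid.

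Single-cell RNA sequencing had been done on macrophages of the sciatic nerve from adult Flt3-Cre LSL-YFP fl/fl mice, in which Cre recombinase under Flt3 control marks cells whose progenitors passed through an Flt3-expressing stage. Nerves of 19 males aged 10 to 12 weeks were pooled, digested with enzymes and sorted on CD64 and CD45 into YFP-negative cells, which the study treats as embryonic-derived, and YFP-positive cells, which it treats as derived from hematopoietic stem cells (HSCs). The labels give no treatment, and each group was sequenced as 1 droplet library, so animals cannot be told apart. No test between the groups was therefore possible, and all intervals below are 95% intervals that cover counting error only.

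Barcodes with at least 500 unique molecular identifiers (UMIs, each marking 1 captured transcript) and 200 genes were taken as cells, 1045 in the YFP-negative and 4053 in the YFP-positive library, with medians of 2233 and 1484 UMIs. The 2 libraries shared 7 cell barcodes. All 11 macrophage markers were detected in both, with summed levels of 20350.3 and 20345 counts per 1000000 UMIs (CPM), while 3 of 4 T cell, 3 of 4 neutrophil and 3 of 4 mast cell markers were at 0 in each library. Markers of Schwann cells summed to 704 and 647 CPM, those of fibroblasts to 23.6 and 94.6 CPM and those of mural cells to 11.6 and 127 CPM, and 10 and 55 cells had 1% or more of their UMIs on markers of non-macrophage cells.

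Upstream sequence is shown for the members with a motif of the heat shock element there, and for Dnajb1, which had none. RefSeq promoter windows of build GRCm38.p6 were matched for 7 members, and not for Hspa8, Hsp90aa1 and Hsp90ab1. The motif searched was 2 facing units, GAANNTTC or TTCNNGAA, which reads the same way on both strands, in the 250 bases before each start. The 7 members had 12 windows, of which 7, from 6 members, held at least 1 match, while 12.8% of the 32851 windows of all genes did. The 7 are not independent. Hspa1a and Hspa1b are near copies, Hspd1 and Hspe1 share a site, and both windows of Hsph1 hold the same site. The 150 bases before the start of Hspa1a (chr17:34972157-34972306, minus strand), of Hspa1b (chr17:34959239-34959388, minus strand) and of Dnajb1 (chr8:83608025-83608174, plus strand) overlap no annotated exon. For the other 3 members printed, the matches lie within exons of some transcripts, and 30 bases are given: Hsph1 (chr5:149636351-149636380, minus strand), Dnaja1 (chr4:40722333-40722362, plus strand) and Hspe1 (chr1:55088053-55088082, plus strand). Matches are in capitals, and each sequence runs 5′ to 3′.
Hspa1a: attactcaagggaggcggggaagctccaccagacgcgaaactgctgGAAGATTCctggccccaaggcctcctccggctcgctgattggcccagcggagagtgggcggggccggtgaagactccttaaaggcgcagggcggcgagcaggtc
Hspa1b: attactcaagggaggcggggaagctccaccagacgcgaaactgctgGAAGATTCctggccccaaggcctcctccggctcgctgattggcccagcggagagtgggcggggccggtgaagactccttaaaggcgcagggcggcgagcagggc
Dnajb1: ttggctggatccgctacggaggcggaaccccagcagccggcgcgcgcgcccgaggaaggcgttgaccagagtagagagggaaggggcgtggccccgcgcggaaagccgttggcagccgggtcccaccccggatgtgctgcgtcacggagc
Hsph1: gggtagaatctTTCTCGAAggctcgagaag
Dnaja1: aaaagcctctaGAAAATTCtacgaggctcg
Hspe1: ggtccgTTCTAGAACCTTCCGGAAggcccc
The windows of Hspa1a and Hspa1b were identical at 247 of 250 bases, with the match 104 to 97 bases before the start in both. The match of Dnaja1 lay 124 to 117 bases before the start of 1 of its 3 windows. The Hspe1 site held 3 overlapping matches over 18 bases, and 3 units in a row, each 2 bases apart, were found in 0.466% of all windows. Hspd1 and Hspe1 lie head to head on chromosome 1, so the same 30 bases, read on the other strand, are the site of Hspd1. No match was found in the 2 windows of Dnajb1, which says only that these letters are not there.

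Because reads come from the 3′ ends of transcripts, Hspa1a (chr17:34969190-34972156) and Hspa1b (chr17:34956436-34959238), which lie next to each other on the minus strand, can be counted apart only there. In the GENCODE transcripts, 47.1% of the 100-base windows of Hspa1a were present in Hspa1b, but none of those in its last 500 bases. How reads from the shared stretch were assigned was not tested, and the pair is also given as a sum. Annotated pseudogenes took few counts: 1 and 1 UMIs for the 6 of Hspe1, 18 and 22 for the 5 of Hspd1, and 0 and 0 for that of Dnaja1.

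Hspa1b, Dnajb1 and Hspa1a differed most between the libraries, and every constitutive member was at most 1.39-fold higher in YFP-positive cells. The summed inducible members had 899 CPM (862 to 938) in YFP-negative and 1308 CPM (1281 to 1335) in YFP-positive cells, a log2 ratio of 0.54 (0.47 to 0.61). The summed constitutive members had 1752 CPM (1699 to 1805) and 2054 CPM (2020 to 2088), a log2 ratio of 0.23 (0.18 to 0.28). The 2 intervals do not overlap, but they cover counting error only and leave out the spread between cells. Inducible UMIs were concentrated in few cells, as given below, so this is no test of a difference between the sets. Hspa1a and Hspa1b held 1601 of the 2174 inducible UMIs in YFP-negative and 6864 of 8824 in YFP-positive cells. Without them the inducible members summed to 237 and 290 CPM, a log2 ratio of 0.29 (0.16 to 0.43). That interval overlaps the interval of the constitutive members.

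Hspa1a had 587 CPM (557 to 618) in YFP-negative and 866 CPM (844 to 888) in YFP-positive cells, a log2 ratio of 0.56 (0.48 to 0.65). Hspa1b had 75.3 CPM (64.7 to 87.0) and 151 CPM (142 to 161), a log2 ratio of 0.998 (0.772 to 1.23). Hspa1b therefore made up 11.4% (exact binomial interval 9.85 to 13.03) of the UMIs of the pair in YFP-negative and 14.9% (14.04 to 15.7) in YFP-positive cells. Dnajb1, a J-domain protein, had 63.3 CPM (53.6 to 74.1) and 95.4 CPM (88.2 to 103), a log2 ratio of 0.59 (0.33 to 0.85). The interval of Dnajb1 spans the 1.5-fold line, as does that of Hspa1a.

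The other inducible members differed less. Hsp90aa1 had 165 CPM (150 to 182) and 187 CPM (177 to 197), a log2 ratio of 0.17 (0.01 to 0.34). Hsph1 was close to the limit of detection, with 20 and 55 UMIs, 8.27 CPM (5.05 to 12.8) and 8.15 CPM (6.14 to 10.6), and its log2 ratio of -0.02 (-0.70 to 0.69) leaves room for a difference in either direction. Hsph1 fell below the mean of 20 CPM needed for the counts that follow.

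Among the constitutive members, Hspa8 had 830 CPM (794 to 868) and 967 CPM (944 to 991), and Hsp90ab1 had 648 CPM (616 to 681) and 744 CPM (724 to 765), with log2 ratios of 0.22 and 0.20. Dnaja1, also a J-domain protein, had the largest constitutive ratio, 0.47 (0.27 to 0.68), from 97.2 CPM (85.2 to 110) and 135 CPM (127 to 144). Of the mitochondrial members, Hspd1 had 50.9 CPM (42.3 to 60.7) and 56.9 CPM (51.4 to 62.9), and Hspe1 had 126 CPM (112 to 141) and 151 CPM (142 to 160). Their log2 ratios were 0.16 (-0.13 to 0.46) and 0.26 (0.07 to 0.45), so the interval of Hspd1 includes 0.

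Of the 9 members with a mean of at least 20 CPM, 2 (Hspa1b and Dnajb1) were at least 1.5-fold higher in YFP-positive cells, where 1.54% of the 5531 genes at that level were, and 0 were at least 1.5-fold lower, where 5.77% were. Dnajb1 was just inside that line at 1.5005-fold and Hspa1a just outside at 1.47-fold. The count was between 1 and 5 under the other settings tried, and Hspa1b was among those counted in every one. It was 5 with each cell thinned to 500 UMIs, where Dnajb1 had a log2 ratio of 1.27, Dnaja1 of 0.70 and Hspe1 of 0.66. All 9 ratios were above 0, with a median of 0.26, beside a median of -0.0024 over the 5531 genes, with 50% of their ratios between -0.16 and 0.15. The counting interval lay above 0 for 8 of the 10 members. The same share over all genes was not counted, so this count is not read further.

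**Figure D1:**
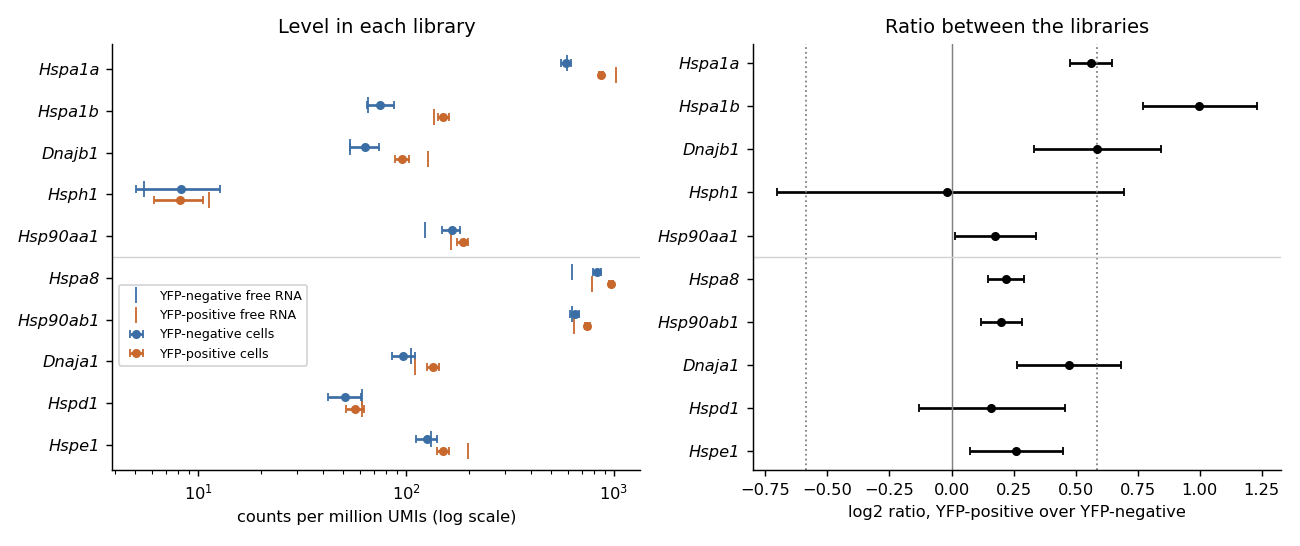
Left, level of each member in cells (points with exact Poisson intervals of 95%) and in free RNA (ticks), in CPM on a log axis. Right, log2 ratio of YFP-positive over YFP-negative cells with its counting interval, the dotted lines marking 1.5-fold. Inducible members are above the grey line and constitutive ones below. Hspa1b has the highest ratio, 0.998, and Hsph1 the widest interval.

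The summed inducible members were higher in YFP-positive cells at each depth of cell. In cells under 1000 UMIs the inducible members summed to 774 CPM (621 to 953) in YFP-negative and 1133 CPM (1064 to 1206) in YFP-positive cells. In cells of 1000 to under 2000 UMIs they summed to 498 CPM (433 to 569) and 964 CPM (924 to 1005), and in cells of 2000 or more to 998 CPM (953 to 1044) and 1573 CPM (1532 to 1614).

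Free RNA, read from barcodes with 10 to 100 UMIs (56346 and 85373 barcodes), carried all members, some at higher and some at lower levels than the cells. The summed inducible members had 843 and 1466 CPM in it, beside 899 and 1308 CPM in cells. Hspa1a had 595 CPM (546 to 647) in the free RNA of the YFP-negative and 1027 CPM (983 to 1072) of the YFP-positive library, so the free RNA, like the cells, held more of it in the YFP-positive library. Hspa8 was lower in free RNA than in cells in both libraries, with log2 ratios of cells over free RNA of 0.40 (0.27 to 0.54) and 0.31 (0.23 to 0.39). What part of the difference in Hspa1a came from free RNA was not tested. When 10% of the UMIs of each library were taken as free RNA and removed, the log2 ratio of the summed inducible members was 0.51.

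Across cells of a library the inducible members were concentrated in few cells, and the constitutive members less so. Each cell was thinned to 500 UMIs for this, so that all cells have the same number of UMIs. The thinned sums still went weakly with the UMIs of a cell before thinning. The correlations were 0.07 and 0.09 for the inducible and 0.13 and 0.11 for the constitutive members. The tenth of cells with most inducible UMIs held 84.7% of them in the YFP-negative and 76.8% in the YFP-positive library. For the constitutive members the shares were 36.3% and 36.8%. What counting error alone would give for these shares, which depends on the mean of each sum, was not computed. The variance over the mean of the summed inducible UMIs was 4.80 and 4.68, and that of the constitutive UMIs 1.27 and 1.43. A value of 1 is that of an even spread with counting error only. In cells of at least 1000 UMIs, thinned to 1000, the constitutive value was 1.44 and 1.76, further from an even spread.

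Among single members, Hspa1a had the highest variance over mean, 4.33 and 4.17. Hspa1b had 2.11 and 1.39, Hsp90aa1 1.29 and 1.39, and Dnajb1 1.09 and 1.61. Hspa8 had 1.27 in both libraries, and Hsp90ab1, Dnaja1, Hspd1 and Hspe1 had between 1.01 and 1.198. These 4 genes were thus closer than Hspa1a to the value for an even spread at this depth. Hsp90ab1, at 1.17 and 1.15, and Dnaja1 in YFP-positive cells, at 1.198, were still above it. Intervals of these values were not computed. Hspd1 and Hspe1, and Dnaja1 and Dnajb1 in YFP-negative cells, had few UMIs per cell, which limits what excess can be seen. The value also depends on the level of a gene, so it does not rank the members by how concentrated they were.

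The smallest number of cells that held 50% of the UMIs of the Hspa1a and Hspa1b pair was 21 cells, 2.01% of the YFP-negative library. In the YFP-positive library it was 142 cells, 3.50%. For Hspa8 the shares were 10.1% and 10.9%. Few UMIs alone also make such a share small, and for the sparse Hspd1 it was 0.957% and 1.23%. The highest single cell before thinning had 57 and 54 UMIs of the pair, and 46 and 47 UMIs of the 5 constitutive members.

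A UMI of Hspa1a was seen in 10.0% of thinned YFP-negative cells (exact binomial interval 8.29 to 12.0) and in 15.4% of YFP-positive cells (14.3 to 16.5). Before thinning the shares were 19.9% and 24.8%. Cells made wholly of free RNA would have shown one in 25.7% and 40.2%, more than were seen. What part of the single UMIs was free RNA was not tested. There were 18 cells with 5 or more UMIs of the pair, 1.72% (1.02 to 2.71), in the YFP-negative and 120, 2.96% (2.46 to 3.53), in the YFP-positive library, where cells made wholly of free RNA would give 0.0260 and 1.39. For the summed inducible members, 2.11% (1.32 to 3.17) and 3.75% (3.19 to 4.38) of cells had 5 or more UMIs. For the constitutive members, 0.861% (0.395 to 1.63) and 1.36% (1.02 to 1.76) did.

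A UMI of Hspa8 was seen in 29.6% (26.8 to 32.4) and 33.3% (31.8 to 34.7) of thinned cells, and one of Hsp90ab1 in 24.98% (22.4 to 27.7) and 27.4% (26.0 to 28.8). Cells made wholly of free RNA would give 27.0% and 32.3% for Hspa8 and 27.1% and 27.4% for Hsp90ab1. The intervals of the libraries overlap for both genes.

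**Figure D2:**
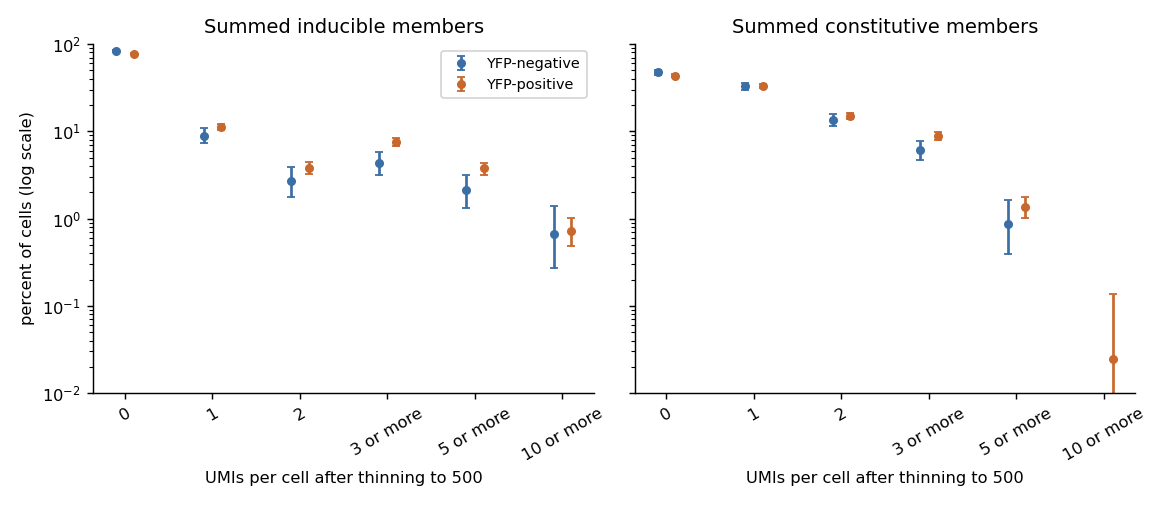
Percent of cells (log axis) by the number of UMIs of the summed inducible (left) or constitutive (right) members in each cell thinned to 500 UMIs, with exact binomial intervals of 95%. The classes of 3, 5 and 10 or more overlap. More cells hold none of the inducible members (84.1% and 77.4%) than none of the constitutive members (47.8% and 43.2%), and yet more cells hold 5 or more of the inducible ones. No YFP-negative cell had 10 or more constitutive UMIs, so that point is left out.

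Leaving out the cells with 5 or more UMIs of the pair, a setting chosen after seeing the data, lowered the level of the inducible members and not the ratio between libraries. Without those cells the inducible members summed to 644 and 940 CPM, a log2 ratio of 0.54 (0.46 to 0.63). Those of Hspa1a and Hspa1b were then 0.54 (0.44 to 0.65) and 1.21 (0.93 to 1.50005).

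Some inducible members went together across cells. Over log2(1 + thinned UMIs), the 10 pairs of inducible members had a mean Pearson correlation of 0.15 across the 1045 YFP-negative cells. Across the 4053 YFP-positive cells it was 0.17. With Hspa1a and Hspa1b summed as 1 gene the means were 0.11 and 0.16. Of the 10 inducible pairs, 7 and 6 were above 0.10, against 0 and 1 of the 10 constitutive pairs and 4 and 9 of the 25 mixed pairs. The share over all gene pairs was not counted. The YFP-negative count includes Hsph1 with Hspa1a, Hspa1b and Hsp90aa1, where only 2, 1 and 2 cells held both. The lowest inducible values were -0.00724 (Dnajb1 with Hsp90aa1) and 0.0493 (Hsph1 with Hsp90aa1). The constitutive pairs had means of 0.01 and 0.04, and the mixed pairs of 0.03 and 0.07. Cells of 1 library share its preparation and free RNA, so these values are a description. The constitutive values are weak in sparse counts and are not read further.

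The highest values were those of Hspa1a with Hspa1b, 0.46 and 0.39, and of Hspa1a with Hsp90aa1, 0.27 and 0.31. Hspa1a with Dnajb1 had 0.14 and 0.25. Hspa8 was the constitutive member nearest to the inducible set, with 0.22 and 0.23 for its pair with Hspa1a. Dnaja1 with Hspa1a had 0.08 in the YFP-negative and 0.22 in the YFP-positive library, the first from only 8 cells with both. The mitochondrial partners Hspd1 and Hspe1, which share an upstream stretch, had -0.00034 and -0.00635 with each other, where 1 and 7 cells held both.

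**Figure D3:**
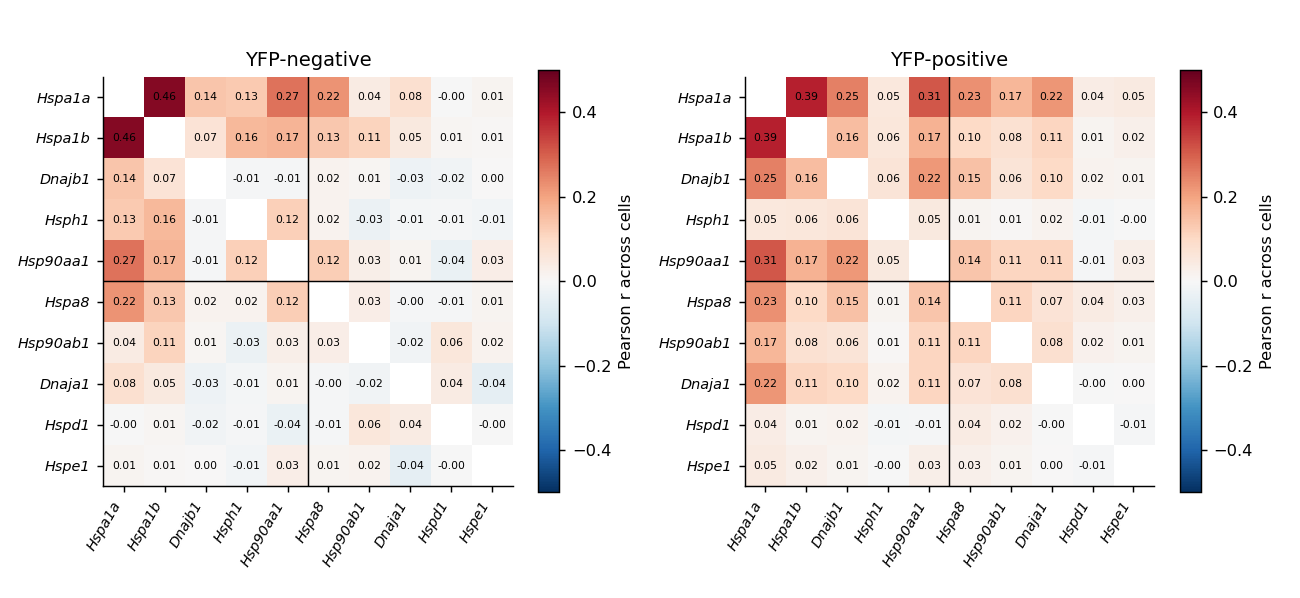
Pearson correlation of each pair of members across the cells of the YFP-negative (left) and YFP-positive (right) library, over log2(1 + UMIs) of cells thinned to 500 UMIs. Black lines separate inducible from constitutive members. The highest values, 0.46 and 0.39, are those of Hspa1a with Hspa1b, and the pairs of constitutive members stay between -0.04 and 0.11.

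Cells were next grouped by their thinned UMIs of the pair (0, 1, 2 to 4, and 5 or more), and the other 8 members were read in each group as CPM over all UMIs but those of the pair. The groups held 934, 47, 46 and 18 YFP-negative and 3347, 314, 272 and 120 YFP-positive cells. The levels of 5 members (Dnajb1, Hsp90aa1, Hspa8, Hsp90ab1 and Dnaja1) were higher in each successive group in both libraries.

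Dnajb1 went from 29.6 CPM in YFP-negative cells with none of the pair through 99.02 and 327 CPM to 838 CPM in those with 5 or more. In YFP-positive cells it went from 44.8 through 156 and 308 to 692 CPM. The log2 ratio of the last group over the first was 4.78 (4.18 to 5.36) and 3.92 (3.61 to 4.22). Hsp90aa1 went from 109 through 182 and 662 to 1445 CPM and from 110 through 238 and 565 to 1068 CPM, log2 ratios of 3.72 (3.31 to 4.11) and 3.27 (3.04 to 3.49). Both genes belong to the inducible set, and no other member had a higher ratio in either library.

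Dnaja1 was the steepest constitutive member, from 79.3 CPM to 356 CPM (log2 ratio 2.15, 1.34 to 2.87) and from 91.1 CPM to 560 CPM (2.61, 2.31 to 2.90). Hspa8 went from 754 to 2744 CPM (1.86, 1.59 to 2.12) and from 812 to 2602 CPM (1.68, 1.55 to 1.81). Hsp90ab1 went from 601 to 1445 CPM (1.27, 0.89 to 1.61) and from 645 to 1877 CPM (1.54, 1.39 to 1.69). All 3 constitutive genes that act in the cytosol were thus higher beside the pair, by less than Dnajb1 and Hsp90aa1.

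Hspd1 and Hspe1, the mitochondrial members, had the lowest ratios of the 8, but only that of Hspe1 in YFP-positive cells had an interval below that of Hsp90ab1. Hspd1 had 50.2 and 83.8 CPM in YFP-negative cells with none and with 5 or more UMIs of the pair (0.73, -1.13 to 2.11) and 54.6 and 127 CPM in YFP-positive cells (1.203, 0.58 to 1.77). Hspe1 had 125 and 105 CPM (-0.26, -1.86 to 0.98) and 141 and 268 CPM (0.92, 0.51 to 1.31). The YFP-negative cells with 5 or more UMIs of the pair held 4 UMIs of Hspd1 and 5 of Hspe1, so a difference was not detectable there at this depth. Hsph1, the other inducible member outside the pair, had 1 UMI in that group and 8 in the YFP-positive one. Its log2 ratios were 1.83 (-2.11 to 4.45) and 2.41 (1.15 to 3.49), below those of the constitutive Dnaja1 but with wide intervals.

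Of the 7 members with a mean of at least 20 CPM outside the pair, 5 were at least 2-fold higher in YFP-negative cells with 5 or more UMIs of the pair, where 9.22% of 5529 genes were, and 6 in YFP-positive cells, where 2.66% were. Their median log2 ratios were 1.86 and 1.68, against -0.23 and -0.17 over those genes. Summed macrophage markers differed little, with log2 ratios of -0.25 (-0.35 to -0.15) and -0.07 (-0.12 to -0.03), and the markers of non-macrophage cells were lower, with -0.48 (-1.03 to 0.02) and -1.02 (-1.31 to -0.75). Mitochondrial transcripts, a sign of damaged cells, had log2 ratios of 0.15 (0.03 to 0.27) and 0.09 (0.03 to 0.14).

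**Figure D4:**
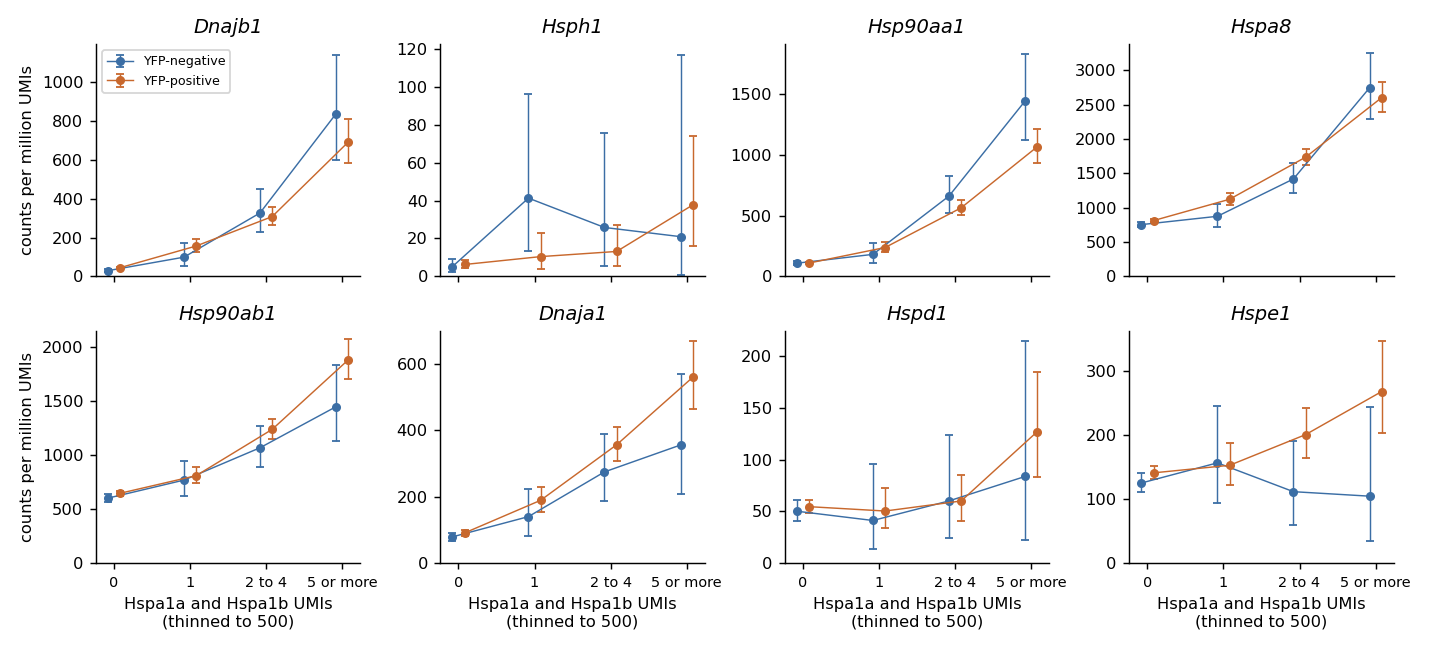
Level in CPM (linear axes from 0, a scale of its own for each gene) of the 8 members outside the pair, in cells grouped by their thinned UMIs of Hspa1a and Hspa1b, with exact Poisson intervals of 95%. Dnajb1 and Hsp90aa1 climb most, Hspa8, Hsp90ab1 and Dnaja1 less, and the intervals of Hsph1, Hspd1 and Hspe1 are wide in the YFP-negative library, whose last group holds 18 cells.

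Other chaperones were also read in the same cells. Of a list of 73 further chaperones and co-chaperones, 53 had a mean of at least 20 CPM. Of these, 0 were 1.5-fold higher and 0 lower in YFP-positive cells, beside 1.54% and 5.77% of all genes. A ratio above 0 was seen for 34, a share that was not counted over all genes. The median was 0.10, beside -0.0024 over all genes at that level. In cells with 5 or more UMIs of the pair, 9 in the YFP-negative and 3 in the YFP-positive library were at least 2-fold higher. Of all genes, 9.22% and 2.66% were, and the same 3 genes of the list passed in both. At least 2-fold lower were 6 and 2, some of them, such as Stip1 and Grpel1, with 0 UMIs in these YFP-negative cells. The share of all genes at least 2-fold lower was not counted, so the counts of lower genes are not read further. The medians of the list were 0.09 and 0.05. Among the 3 genes that were higher in both libraries were Ubb, a polyubiquitin gene, and Hmox1, which encodes heme oxygenase. Ubb had log2 ratios of 1.86 (1.65 to 2.06) and 1.40 (1.29 to 1.505), and Hmox1 of 2.47 (1.98 to 2.93) and 1.40 (1.06 to 1.73). Neither Ubb nor Hmox1 encodes a folding chaperone.

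Hspa5, the Hsp70 of the endoplasmic reticulum, had a log2 ratio of 1.60 (1.04 to 2.12) in YFP-negative and 0.80 (0.48 to 1.10) in YFP-positive high cells, and Hsp90b1, the Hsp90 of that compartment, had 0.13 (-0.74 to 0.89) and 0.12 (-0.25 to 0.46). Of 18 measured genes of the unfolded protein response, 4 and 2 were at least 2-fold higher in these cells, beside the same 9.22% and 2.66%, and 1, Atf4, was in both, at 1.12 (0.11 to 1.99) and 1.03 (0.53 to 1.49). At least 2-fold lower were 3 and 0, again without a share over all genes, and the median of the list was 0.16 and 0.10.

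Immediate-early genes, which are transcribed within minutes of many stimuli, were high in the same cells. All 21 measured genes were at least 2-fold higher in cells with 5 or more UMIs of the pair in both libraries, with medians of 2.81 and 2.18. Of all genes, 9.22% and 2.66% were. Their summed level was 7421 CPM and 44545 CPM in YFP-negative cells with none and with 5 or more UMIs, and 7322 CPM and 30158 CPM in YFP-positive cells. Atf3, a stress-response repressor, had log2 ratios of 4.54 (4.08 to 4.97) and 4.13 (3.89 to 4.37), and Junb, a subunit of the AP-1 factor, of 3.37 (3.16 to 3.57) and 2.66 (2.54 to 2.78). Between the libraries, 1 of the 21 (Nr4a1, log2 ratio 0.65, 0.20 to 1.13) was 1.5-fold higher in YFP-positive cells, beside 1.54% of all genes. The median of this list was 0.16. The part of these genes in the differences of the chaperones was not tested.

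Among the 10 genes outside the family most like the summed inducible members, by the lower of the Pearson correlations in the 2 libraries among 2623 genes, were Jun, Junb, Atf3, Fos, Nfkbia, Cxcl2, Dusp1, Jund and Ccl4. Jun, which led the list, had 0.38 across YFP-negative and 0.36 across YFP-positive cells, and Ccl4, the last, had 0.22 and 0.33. Only 1.79% and 1.48% of all genes with a mean of at least 50 CPM, members included, exceeded 0.10. For the summed constitutive members the 5 most like were Fos, Jund, Junb, Ccl4 and Gm26825, with values from 0.11 to 0.18, which is weak for sparse counts.

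Cells of both libraries were then clustered without the 10 members and the further chaperones, which gave 9 clusters. The inducible members were highest in cluster 5 (59 YFP-negative and 406 YFP-positive cells), which was inflammatory-like, led by Cxcl2, Ccl4, Atf3, Il1b and Ccl3. They summed there to 6081 CPM (5731 to 6447) in YFP-negative and 5858 CPM (5699 to 6020) in YFP-positive cells, and to 143 and 245 CPM in cluster 1, which had no markers of a fixed list among its leading genes. Over both libraries, the highest cluster was 28.0-fold above the lowest for the inducible and 2.98-fold for the constitutive members.

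Every inducible member was highest in cluster 5, as were Hspa8, Hsp90ab1 and Dnaja1. Hspa1a had 4195 CPM there and 89.6 CPM in cluster 1, 46.8-fold less, and Dnajb1 had 405 CPM there and 11.6 CPM, from 3 UMIs, in cluster 6, the Cd209 macrophage-like cluster led by Cd209f and Cd209g. The inducible Hsp90aa1 ranged 9.68-fold over the clusters. Of the constitutive members, Dnaja1 ranged 5.31-fold, Hspa8 3.84-fold, Hspd1 2.69-fold, Hsp90ab1 2.35-fold and Hspe1 2.05-fold. Hspd1 was highest in cluster 9, the cycling-like cluster led by Top2a, with 112 CPM (74.3 to 162), and Hspe1 in cluster 8, with Acta2 and Tagln among its leading genes, with 199 CPM (133 to 285). Of the 138 cells with 5 or more UMIs of the pair, 102 (73.9%) were in cluster 5, where they were 21.9% of cells. Cluster 3, the immediate-early-like cluster led by Cyr61, Fosb and Jund, held 24. The name of cluster 3 follows its leading genes only. The mean log2 ratio of the immediate-early markers over all other cells was higher in cluster 5, at 1.95, than in cluster 3, at 0.73.

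Inside cluster 5 the libraries did not differ in the inducible members beyond counting error, with a log2 ratio of YFP-positive over YFP-negative cells of -0.05 (-0.15 to 0.04), while the constitutive members had 0.26 (0.14 to 0.39). In the other clusters with at least 50 YFP-negative cells the inducible members were higher in YFP-positive cells. Their log2 ratios were 0.77 (0.44 to 1.11) in cluster 1, 0.92 (0.46 to 1.42) in cluster 2 and 0.44 (0.31 to 0.57) in cluster 3. They were 0.69 (0.40 to 0.99) in cluster 4, led by S100a4 and Lgals3, and 1.28 (0.52 to 2.11) in cluster 6. The constitutive members had 0.04 (-0.08 to 0.15) in cluster 1, -0.10 (-0.25 to 0.06) in cluster 2 and 0.14 (-0.20 to 0.48) in cluster 6. These 3 intervals include 0. In clusters 3 and 4 the constitutive members had 0.17 (0.08 to 0.27) and 0.16 (0.01 to 0.31). Cluster 5 held 5.65% of YFP-negative and 10.0% of YFP-positive cells. These shares rest on clustering with genes that differ in level between the libraries. The part of the shares in the summed inducible ratio was not tested. In the lowest cluster with at least 50 cells of a library the level of Hspa1a was 6.94% and 10.8% of that in free RNA of the same library, 41.2 CPM (11.2 to 106) from 4 UMIs and 111 CPM (93.8 to 131) from 145 UMIs. The part of free RNA in the low clusters was not tested.

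**Figure D5:**
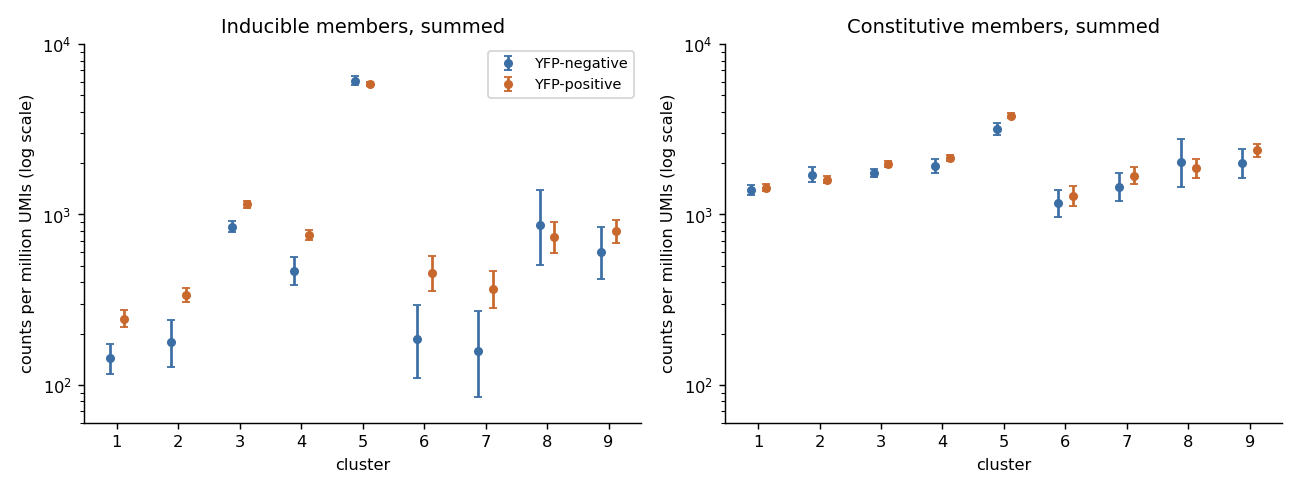
Summed level of the inducible (left) and constitutive (right) members in CPM (log axes) in each of 9 clusters, by library, with exact Poisson intervals of 95%. Cluster 5 stands out for the inducible members, with the libraries close together there (6081 and 5858 CPM), and the constitutive members stay within 1165 and 3804 CPM in all clusters.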

How the data were processed

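Single-cell RNA had been captured and made into libraries with the 10x Genomics 3′ v2 chemistry, 1 library per group. The deposited counts are UMIs per gene and barcode for all barcodes, which the authors aligned and counted with Cell Ranger on GRCm38 (version 3.0.2 in the submitters' processing notes, with Seurat 2.2.0, while the methods name another version of Cell Ranger). Unfiltered tables were used, so cells were chosen here.

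Cells were barcodes with at least 500 UMIs and 200 genes. No doublet caller was run and no cell was removed as a doublet. Levels are CPM of summed counts with exact Poisson intervals, ratios are log2 of CPM plus 1 with an interval from the exact binomial distribution of the counts, and shares have exact (Clopper-Pearson) binomial intervals, all at 95%. UMIs are molecules of single cells, and the intervals leave out the spread between cells, animals and sorts. A count of 0 allows up to 1.24 CPM in the YFP-negative and 0.445 CPM in the YFP-positive library (3 counts). Spread, correlation and shares were read after thinning each cell to 500 UMIs (no cell was left out for this), free RNA from barcodes with 10 to 100 UMIs. Clusters were made with scanpy 1.11.5 (Leiden, 2000 variable genes, 30 components, 15 neighbors, resolution 0.8) on both libraries together, and named only from fixed marker lists, so their names may differ from those of the study. Scripts were tested on simulated data in Python 3.11.15.

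The 10 members, the lists and the division into inducible and constitutive were chosen with earlier results of these data known. All members are given. Other chaperones were named at 1.5-fold between libraries or 2-fold in cells with 5 or more UMIs of the pair in both libraries (Hspa5, Hsp90b1 and single genes of the other lists are examples chosen after their values were seen), at a mean of at least 20 CPM, and the genes most like the sums at 50 CPM. Some genes that these rules would name are not reported here.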

Additional observations from a re-analysis of the deposited data

Results flagged for a closer look

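Hspe1 went in opposite directions in the 2 libraries between cells with 5 or more and with 0 UMIs of Hspa1a and Hspa1b. Its log2 ratio was -0.26 (-1.86 to 0.98) in YFP-negative and 0.92 (0.51 to 1.31) in YFP-positive cells. The difference between the libraries was not tested, the intervals overlap, and 5 UMIs of Hspe1 stand behind the high YFP-negative cells against 57 in the YFP-positive ones.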

How the results depend on the processing

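Values were taken as the same when they stayed within the counting interval of a log2 ratio or a share, within 0.05 of a correlation, or within 1.5-fold of a count, a spread or a ratio between clusters. Of 85 recomputed values of the main comparisons, 66 were the same and 19 moved. A reversal was counted only for log2 ratios at least 1.5-fold apart, so none of the main values could be counted as reversed. The log2 ratio of the summed inducible members ran from 0.51 to 0.63 and that of the constitutive members from 0.20 to 0.25. The former moved to 0.63 when cells were thinned to 500 UMIs and to 0.61 when Hsp90aa1 and Dnaja1 were left out. The number of members 1.5-fold apart was 1 with at least 1000 UMIs per cell, with 10% free RNA removed and without cells with markers of non-macrophage cells, and 5 when thinned to 500 UMIs, which uses fewer UMIs by construction.

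Without thinning, the mean correlation of inducible members was 0.26 in YFP-negative and 0.24 in YFP-positive cells, and that of constitutive members 0.084 in YFP-negative cells. In cells of at least 1000 UMIs, thinned to 1000, the variance over mean of the inducible members was 8.51 and 7.76, and the tenth of cells with most inducible UMIs held 70.9% of them in the YFP-positive library. Without the 1% of cells with most member UMIs the variance over mean was 2.97 in the YFP-negative library. The highest cluster was 8.33-fold above the median cluster for the inducible members, 15.2-fold at resolution 1.2 and 15.1-fold with no gene left out of the clustering. Not thinned, a UMI of Hspa1a was in 19.9% and 24.8% and one of Hspa8 in 70.3% and 64.4% of cells. For Hspa8 the order of the libraries was then the opposite of that in thinned cells, 29.6% and 33.3%. The cause of these moves was not tested, except that more UMIs per cell raise a share of cells.

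Among single members, 4 of 90 log2 ratios moved, all when thinned to 500 UMIs (Dnajb1 to 1.27, Dnaja1 to 0.70, Hspe1 to 0.66 and Hsp90ab1 to 0.11). Only Hspa1b and Dnajb1, at least 1.5-fold apart, could be counted as reversed, and neither was. The ratio of Hsph1 changed sign within its interval, to 0.20 with each cell weighted equally and 0.23 when thinned. Sequencing depth limits Hsph1 in both libraries, and Hspd1 and Hspe1 in the 18 YFP-negative cells with 5 or more UMIs of the pair. With 1 library per group, animals and sorts cannot be told apart from the groups. No paired analysis was possible because each group is 1 library.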
